A study of Mus musculus with 8 samples.

Results

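The NRF2 pathway and the metallothioneins were examined in liver of Rap1-deficient and wild-type mice through 9 genes, namely Nfe2l2, which encodes NRF2, its antioxidant targets Nqo1, Hmox1, Gclc, Gclm, Txnrd1 and Srxn1, and the metallothionein genes Mt1 and Mt2. Every non-control probe whose accession maps to one of these symbols was taken, which gave 10 probes for the 9 genes, out of 55681 probes and 19752 named genes on the array. All 10 probes were well above background on all 8 arrays, so all of them passed the filter on dim probes. RNA came from liver of 4 mice labelled Rap1 -/- and 4 labelled wild-type, each hybridized to an Agilent array of its own in a single colour. All mice were 10 weeks old and shared a mixed C57BL6/129SV background (90% and 10%), received no treatment named in the labels, and were profiled before the onset of obesity that the study describes in this line. The study describes the line as a whole-body knockout of Rap1, the shelterin component encoded by Terf2ip, and its young profiled mice as females, while sex and feeding state are absent from the labels.

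NRF2 is a transcription factor that KEAP1 keeps at a low level by handing it to the CUL3 ubiquitin ligase. Electrophiles and oxidants act on KEAP1, NRF2 then accumulates, pairs with a small MAF protein and binds antioxidant response elements (AREs) in genes for glutathione synthesis, thioredoxin reduction, NADPH supply and detoxification. BACH1 occupies the same elements as a repressor, and haem releases it, which matters most for Hmox1. Metallothioneins are small cysteine-rich proteins that bind zinc and copper. In liver their transcription responds to zinc through the factor MTF1 and the metal response elements (MREs) it binds, and to glucocorticoids and interleukin-6.

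The elements themselves are shown from the RefSeq promoters of GRCm38.p6 (250 bases before to 50 bases after a gene's start), which matched 7 of the 9 genes. The patterns searched, on both strands, were the MRE core as TGCACNC or TGCGCNC and an ARE-like core as TGACNNNGC or TGAGNNNGC. The windows for Mt1 and Mt2 are printed because these genes varied together between mice, as described further down. Capitals mark the match, each run is on the strand of the gene, and positions count the start base as 1.

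Mt1, MRE core at -23, chr8:94179057-94179081 (+): gtcccgctgTGCACACtggcgctcc

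Mt1, MRE core at 3, chr8:94179082-94179106 (+): agggagctcTGCACTCcgcccgaaa

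Mt1, MRE core at 21, chr8:94179100-94179124 (+): cccgaaaagTGCGCTCggctctgcc

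Mt2, MRE core at -223, chr8:94172386-94172410 (+): catcgcctcTGCACCCggcccctcg

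Mt2, MRE core at -128, chr8:94172481-94172505 (+): cagacccttTGCGCTCagctccttt

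Mt2, MRE core at -50 on the opposite strand, chr8:94172559-94172583 (+): ggggagggcGTGTGCAggctctgtc

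Mt2, MRE core at 5 on the opposite strand, chr8:94172613-94172637 (+): attcgggtcGTGCGCAggcccaggg

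Mt2, ARE-like core at -79, chr8:94172530-94172556 (+): aagggggtgTGACTCAGCgcggggggt

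Srxn1, ARE-like core at -45, chr2:152105470-152105496 (+): aattcacccTGAGTCAGCggccgggcg

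Mt1 held 3 and Mt2 held 4 matches to the MRE core. Of 32851 promoters of the same length, 25.7% held at least 1 such match and 1.97% held 3 or more. The ARE-like core was matched 3 times in Srxn1 and 1 time each in Gclm, Nfe2l2 and Mt2, in 1 of 3 Txnrd1 promoters and not in the Nqo1 window, against 27.8% of all promoters with at least 1 match. The Srxn1 window is printed because its match, like that of Mt2, also holds the letters TGANTCA, which belong to the AP-1 site, so the patterns overlap there. In Gclm 1 of its 3 MRE matches overlaps its ARE-like match. These are matches of letters in a short window and not measured binding sites.

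Values are log2 of the processed signal relative to the 75th percentile of the same array, so that a level of 1 is a signal 2 times that percentile. The percentile itself was between 178.9 and 209.3 in wild-type and between 219.8 and 226.9 in Rap1-deficient arrays. The share of probes well above background ran from 50.03% to 65.3%, and no spot was saturated. Pairs of arrays correlated at 0.984 to 0.993. The array carries 2 probes for the deleted gene Terf2ip. One probe had a level of 0.14 ± 0.09 (SD, n = 4) in wild-type liver and was well above background on 0 of 4 Rap1-deficient arrays, a signal at least 18.96-fold lower (limma, adjusted p = 7.09e-06 over all probes). The other was 1.20 higher in Rap1-deficient liver (SE 0.15, adjusted p = 0.127), and whether it reads a part of the transcript outside the deletion was not tested, so it checks no label. The arrays lay on 2 slides, each with 2 wild-type arrays in its first positions and 2 Rap1-deficient arrays in the following ones, so slide is balanced over genotype, but genotype and position on the slide cannot be told apart. Of the 8 hepatocyte markers checked, including Alb, Apoa1 and Ttr, all 8 passed the filter on dim probes.

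None of the 9 genes differed between the genotypes at an adjusted p under 0.05 in a limma fit over 14066 genes, and 1 of the 9, Nqo1, had an unadjusted p under 0.05. The background was low as well. In the same fit 0.0142% of all genes passed, which were Chst4 and Zfhx3, both lower in Rap1-deficient liver, and 6.36% had an unadjusted p under 0.05. Among probes 0.00644% passed, including the lowered Terf2ip probe, and 0 of the 10 member probes. In the gene fit Terf2ip was read by its other probe, the brighter on average, so its loss is absent from the genes called. Of the 9 genes 6 had a log2 fold change above 0, with a median of 0.19, compared with 56.1% of all genes above 0 and a median of 0.02. The groups overlapped for each of the 9 genes, whereas 4.31% of all genes had groups that did not overlap. The 95% confidence intervals of the 9 genes reached from 0.21 to 0.80 at their upper end and from 0.02 down to -2.38 at their lower end.

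**Figure D1:**
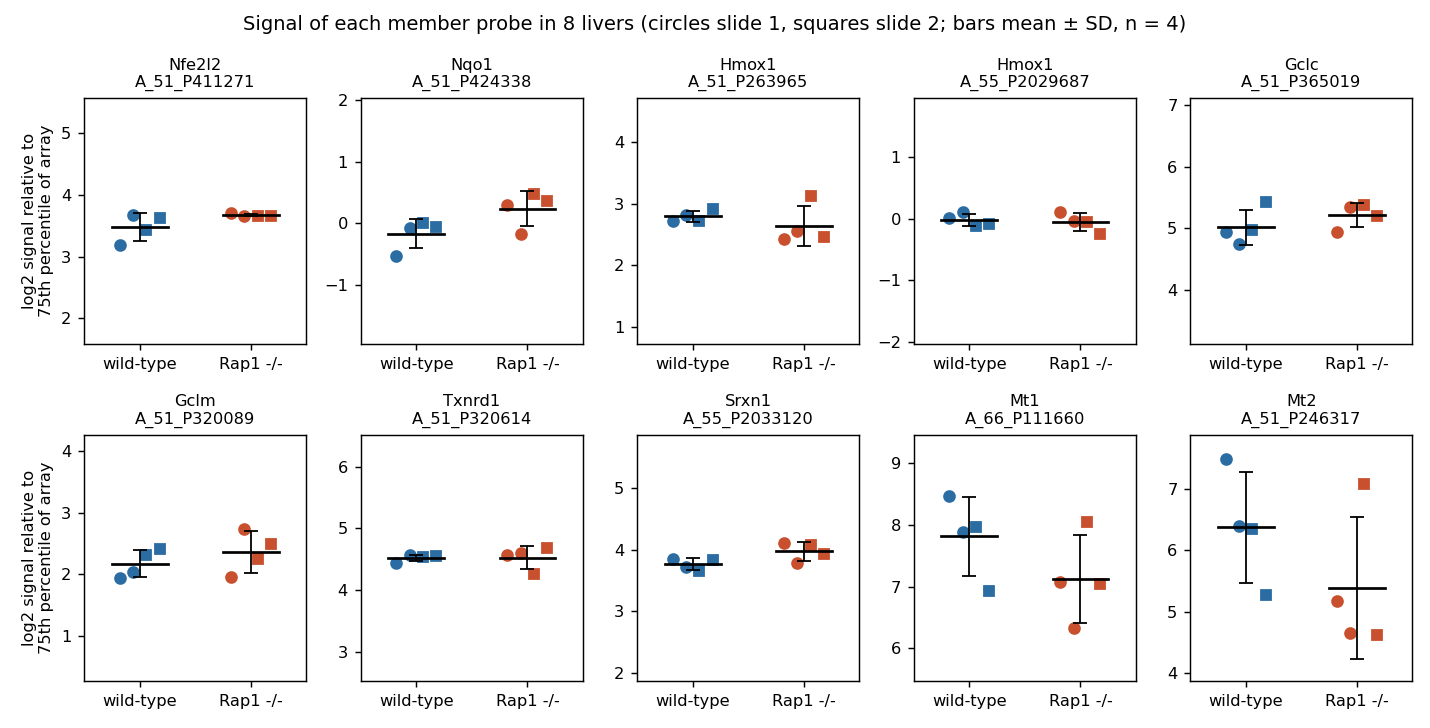
Log2 signal relative to the 75th percentile of the array (y axis, each panel spanning 4 log2 units) for the 10 probes in 4 wild-type (blue) and 4 Rap1 -/- (red) livers, with circles for slide 1, squares for slide 2, and bars for mean ± SD. The points of the genotypes overlap in every panel, and Mt1 and Mt2 spread most.

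Nfe2l2 was close to constant in Rap1-deficient liver. Its levels were 3.70, 3.66, 3.66 and 3.66 in the 4 Rap1-deficient mice (replicates 1 to 4) and 3.18, 3.68, 3.43 and 3.63 in the 4 wild-type mice. Wild-type replicates 1 and 3 were the lowest, and the other wild-type mice lay at the level of the Rap1-deficient ones. The log2 fold change was 0.19 (SE 0.12, 95% confidence interval -0.08 to 0.47, adjusted p = 0.83). The SD was 0.22 within wild-type and 0.02 within Rap1-deficient mice, a difference in spread that was not tested.

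The partners that control NRF2 showed no difference past the threshold either. Of 14 listed KEAP1-NRF2 regulators, all 14 were tested, 0 passed in either direction, and 7 lay above 0 with a median of 0.01. Keap1, the sensor, had a log2 fold change of -0.15 (SE 0.10). Bach1, the repressor, had 0.00 (SE 0.22), and its relative Bach2 had 0.32 (SE 0.36). Mafg, a small MAF partner of NRF2, had 0.07 (SE 0.18). Nfe2l1, a related factor that binds similar elements, had -0.13 (SE 0.14). Palb2, whose protein binds KEAP1, had -0.53 (SE 0.32) but was well above background on 2 of 4 arrays of each genotype only. Adjusted p values across this list ran from 0.821 to 1.00.

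Nqo1, the NADPH quinone oxidoreductase that is a standard readout of NRF2, had the largest positive difference of the 9. Its levels were 0.30, -0.17, 0.48 and 0.36 in Rap1-deficient and -0.52, -0.08, 0.00 and -0.06 in wild-type mice. Thus 3 Rap1-deficient mice lay above all wild-type mice, while Rap1-deficient replicate 2 lay below 3 of them, and wild-type replicate 1 stood below the rest. The log2 fold change was 0.41 (SE 0.17, 95% confidence interval 0.02 to 0.80, unadjusted p = 0.0430 and adjusted p = 0.776 by limma). It was 0.37 within slide 1 and 0.45 within slide 2, and 0.29 without wild-type replicate 1.

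**Figure D2:**
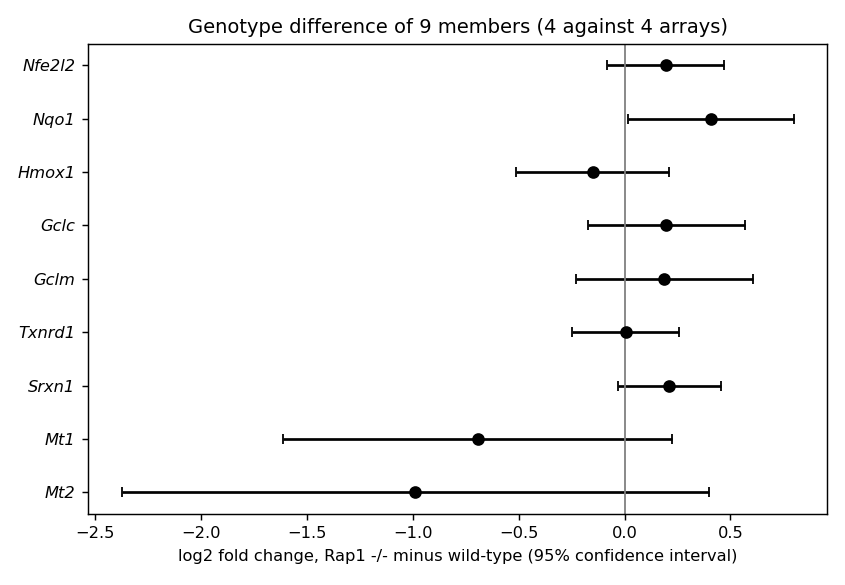
Log2 fold change of the 9 genes, Rap1 -/- minus wild-type (x axis), with its 95% confidence interval from limma (4 against 4 arrays). The interval of Nqo1 lies just above 0 before adjustment, the other 8 include 0, and those of Mt1 and Mt2 are the widest.

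Gclc and Gclm encode the catalytic and the modifier subunit of glutamate-cysteine ligase, which carries out the first step of glutathione synthesis. Gclc levels were 4.94, 5.34, 5.38 and 5.20 in Rap1-deficient and 4.94, 4.74, 4.97 and 5.42 in wild-type mice. The highest and the lowest mouse were both wild-type, and Gclc was higher by 0.20 in Rap1-deficient mice (SE 0.16, 95% interval -0.17 to 0.57, adjusted p = 0.862). Gclm levels were 1.96, 2.74, 2.25 and 2.49 in Rap1-deficient and 1.94, 2.04, 2.31 and 2.42 in wild-type mice. Here 2 Rap1-deficient mice exceeded all wild-type mice and 1 lay next to the wild-type minimum, and the mean differed by 0.19 on the log2 scale (SE 0.18, 95% interval -0.23 to 0.60, adjusted p = 0.881).

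Txnrd1 encodes the cytosolic thioredoxin reductase. Its levels were 4.56, 4.60, 4.26 and 4.68 in Rap1-deficient and 4.44, 4.56, 4.53 and 4.54 in wild-type mice. Rap1-deficient replicate 3 was the lowest and replicate 4 the highest of all 8, and the means were nearly equal (log2 fold change 0.01, SE 0.11, 95% confidence interval -0.25 to 0.26, adjusted p = 0.998). Its sign turned to -0.05 with quantile or cyclic loess normalization, so no direction can be given. Srxn1 encodes sulfiredoxin, which repairs overoxidized peroxiredoxins. Its levels were 4.11, 3.78, 4.08 and 3.93 in Rap1-deficient and 3.85, 3.72, 3.65 and 3.84 in wild-type mice. Of the Rap1-deficient mice 3 lay above the highest wild-type mouse and 1 lay among the wild-type mice. The log2 fold change was 0.21 (SE 0.11, 95% confidence interval -0.03 to 0.45, adjusted p = 0.789), with 0.16 within slide 1 and 0.26 within slide 2.

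Hmox1, the inducible haem oxygenase, was read by 2 probes. The brighter probe gave 2.43, 2.55, 3.12 and 2.47 in Rap1-deficient and 2.72, 2.82, 2.72 and 2.91 in wild-type mice. Rap1-deficient replicates 1, 2 and 4 lay below all wild-type mice, and replicate 3 lay above them all, and the mean differed by -0.15 on the log2 scale (SE 0.16, 95% interval -0.51 to 0.21, adjusted p = 0.888). The other probe gave 0.11, -0.04, -0.05 and -0.25 in Rap1-deficient and 0.01, 0.11, -0.11 and -0.09 in wild-type mice, with a log2 fold change of -0.04 (SE 0.11, adjusted p = 0.973 over all probes). The mouse with the highest value on the brighter probe was not the highest on the other, so the probes did not order the mice in the same way.

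Genes of leukocytes were among those most like Hmox1. The 3 genes whose levels followed it most closely over the 8 arrays were Pdlim4 (Pearson r = 0.967), Ptprc (0.958), which encodes the leukocyte antigen CD45, and Syk (0.955), a kinase of myeloid and lymphoid cells. All 11 tested Kupffer cell and macrophage markers, including Clec4f, Timd4 and C1qc, had log2 fold changes below 0, from -0.33 to -0.03, and none passed (adjusted p from 0.811 to 0.996). Their summed level, on the linear scale in units of the 75th percentile, was 209.4 to 289.5 in wild-type and 163.7 to 276.0 in Rap1-deficient mice, so the groups overlapped. In bulk liver, fewer cells of a type and less RNA per cell cannot be told apart, and the part of macrophages in the Hmox1 values was not tested.

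Hmox1 acts with biliverdin reductase and the haem carriers of plasma. Of 10 listed genes of haem breakdown 9 were tested, 0 passed, and 2 were above 0 with a median of -0.02. Hp, the haemoglobin carrier haptoglobin, was at 9.56, 9.63, 9.67 and 9.25 in Rap1-deficient and 9.93, 10.11, 10.01 and 10.00 in wild-type mice. All Rap1-deficient mice lay below all wild-type mice, with a log2 fold change of -0.49 (SE 0.12, adjusted p = 0.770). Blvra, biliverdin reductase A, had 0.15 (SE 0.08) with no overlap between the groups, and Blvrb, biliverdin reductase B, had 0.19 (SE 0.15). Groups that did not overlap were thus seen for 2 of the 9 tested genes, against 4.31% of all genes. The constitutive enzyme Hmox2 had -0.01 (SE 0.10) and the haem carrier Hpx had -0.12 (SE 0.10).

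Further NRF2 targets, from lists that do not contain the 9 genes, gave 0 of 48 past the threshold. Above 0 were 39 of 48, where 56.1% of all genes were. Their median log2 fold change was 0.12, against 0.02 over all genes. That count was 33 to 34 of 48 under the other normalizations and in the authors' value table, with medians of 0.05 to 0.07. Groups that did not overlap were seen for 2 of the 48, against the 4.31% of all genes given above. No test of the lists was made, and genes read on the same arrays are not independent of each other. The lists were also chosen with earlier results of these data known, so their counts are a description only.

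Among the glutathione and thioredoxin targets 16 of 19 tested genes were above 0, with a median of 0.12, which was 0.055 with cyclic loess. Gstm3, a glutathione transferase, was at 5.30, 5.22, 5.29 and 5.29 in Rap1-deficient and 5.05, 4.94, 5.06 and 4.73 in wild-type mice. The groups did not overlap, and the log2 fold change was 0.33 (SE 0.10, adjusted p = 0.770). Gsta1, another transferase, had the largest value of any listed gene, 0.92 (SE 0.42, adjusted p = 0.783), but ranged from 0.41 to 2.36 in Rap1-deficient and from -0.42 to 0.96 in wild-type mice. Mgst1, the microsomal transferase, had 0.27 (SE 0.12), Txn1, thioredoxin itself, 0.21 (SE 0.09), and Gsr, glutathione reductase, 0.08 (SE 0.11). Slc7a11, the cystine transporter, and Ggt1 were too dim to be tested.

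Of 7 genes for NADPH supply and linked carbon flow 5 were above 0, with a median of 0.10. That median was between 0.021 and 0.037 under the other normalizations and in the value table, and -0.033 on slide 1 against 0.198 on slide 2. G6pdx, which feeds glucose 6-phosphate into the pentose phosphate pathway, went the other way, at 0.73, 1.24, 1.52 and 1.26 in Rap1-deficient and 1.60, 2.04, 1.58 and 1.40 in wild-type mice. Only Rap1-deficient replicate 3 exceeded any wild-type mouse, and the log2 fold change was -0.47 (SE 0.19, adjusted p = 0.770). Pgd, the next NADPH-producing enzyme of that pathway, had 0.25 (SE 0.16), Idh1, the cytosolic isocitrate dehydrogenase, 0.21 (SE 0.15), and Ugdh, which makes UDP-glucuronate, 0.30 (SE 0.30).

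Of 22 tested genes for detoxification, export and iron, 18 were above 0 with a median of 0.11, which was 0.038 on slide 1 and 0.202 on slide 2. Aox1, an aldehyde oxidase, was at 3.73, 3.68, 3.52 and 3.80 in Rap1-deficient and 3.20, 3.06, 3.03 and 3.60 in wild-type mice. Wild-type replicate 4 was the only wild-type mouse that reached the Rap1-deficient range, and the log2 fold change was 0.46 (SE 0.14, adjusted p = 0.770). Htatip2 had 0.41 (SE 0.16) and Ephx1, the microsomal epoxide hydrolase, 0.31 (SE 0.16). These genes are named for their small p, while values in the list ran from -0.53 to 0.53, with 4 genes below 0.

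A further list held other antioxidant enzymes and related proteins such as Txnip and Selenop. Of its 26 tested genes 22 were above 0, where 56.1% of all genes were, with a median of 0.08 and 0 past the threshold. The median was 0.034 with quantile normalization, 0.039 with cyclic loess, 0.050 with normexp and 0.049 in the value table. Groups that did not overlap were seen for 3 of the 26, against 4.31% of all genes. Cat, the peroxisomal catalase, was at 5.12, 5.15, 5.11 and 4.94 in Rap1-deficient and 4.63, 4.52, 4.89 and 4.81 in wild-type mice. The groups did not overlap, and the log2 fold change was 0.37 (SE 0.11, adjusted p = 0.770). Msrb2, a mitochondrial methionine sulfoxide reductase, also had groups without overlap and 0.40 (SE 0.10), and so had the mitochondrial glutaredoxin Glrx2 with 0.15 (SE 0.08). Prdx3, the mitochondrial peroxiredoxin, had 0.26 (SE 0.14), Gpx1, the main cytosolic glutathione peroxidase, 0.15 (SE 0.11), and Sod1, the cytosolic superoxide dismutase, -0.01 (SE 0.09).

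**Figure D3:**
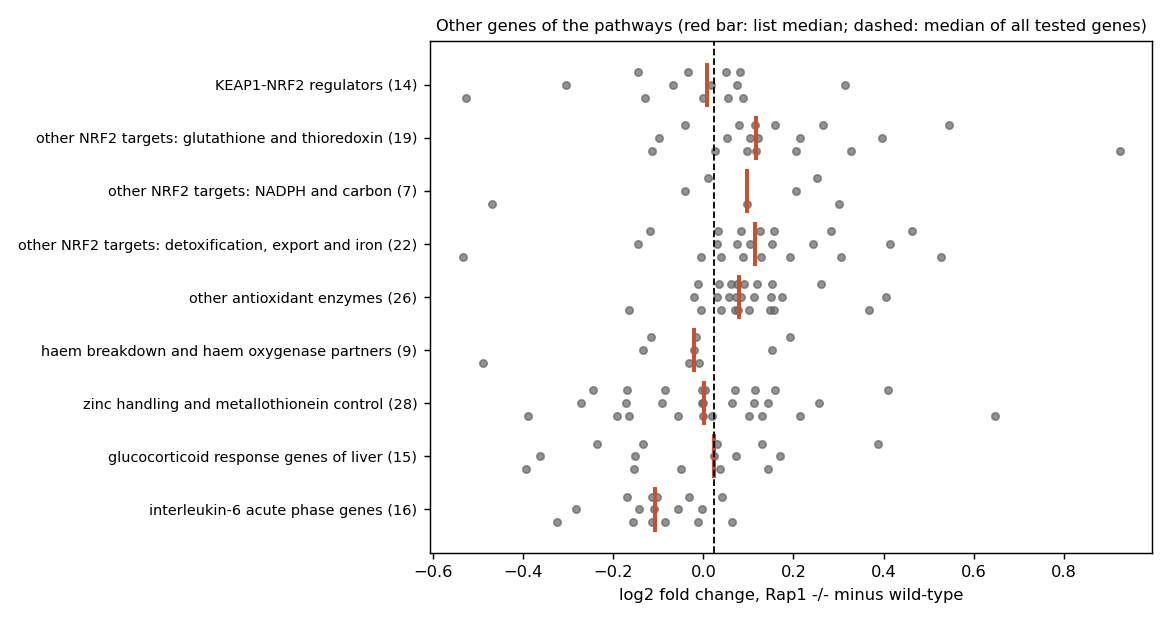
Log2 fold change, Rap1 -/- minus wild-type (x axis), of each tested gene (grey points) in 9 lists, with the number tested in brackets, the list median as a red bar and the median of all tested genes as a dashed line. The medians of the NRF2 target lists and the antioxidant enzymes lie at 0.08 to 0.12, that of the interleukin-6 list at -0.11, and no gene passed the threshold.

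The metallothioneins were the most variable of the 9 genes. Mt1 levels were 7.07, 6.32, 8.05 and 7.04 in Rap1-deficient and 8.47, 7.88, 7.97 and 6.92 in wild-type mice. Rap1-deficient replicate 2 was the lowest of all, replicates 1 and 4 lay next to the lowest wild-type mouse, and replicate 3 lay above 3 of the 4 wild-type mice. The log2 fold change was -0.69 (SE 0.40, 95% confidence interval -1.61 to 0.23, adjusted p = 0.816). Mt2 levels were 5.18, 4.66, 7.07 and 4.63 in Rap1-deficient and 7.49, 6.39, 6.34 and 5.27 in wild-type mice. For Mt2, Rap1-deficient replicates 1, 2 and 4 were below all wild-type mice while replicate 3 was second only to wild-type replicate 1, and the log2 fold change was -0.99 (SE 0.61, 95% confidence interval -2.38 to 0.40, adjusted p = 0.83).

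Mice of one genotype differed widely in both genes. The highest wild-type mouse had 2.93-fold the Mt1 and 4.66-fold the Mt2 signal of the lowest, and the highest Rap1-deficient mouse had 3.32-fold and 5.44-fold. The pooled SD within genotype was 0.68 for Mt1, above that of 96.5% of tested genes, and 1.04 for Mt2, above that of 99.3%, where the median over all genes was 0.21. By contrast the same share was 17.9% for Srxn1, 21.6% for Txnrd1, 31.2% for Nfe2l2, and between 57.9% and 69.0% for Hmox1, Gclc, Nqo1 and Gclm.

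Mt1 and Mt2 varied together between mice. Over the 8 mice Pearson's r was 0.948 (exact permutation p = 0.00203, 0.0142 after adjustment over 7 relations) and Spearman's rho was 0.857 (exact permutation p = 0.0107, adjusted 0.0750, two-sided). Without the 2 mice farthest from the median of Mt1, Rap1-deficient replicate 2 and wild-type replicate 1, r was 0.935. It was 0.931 on deviations from the genotype means and 0.937 with slide means removed as well, while the 4 arrays of a single slide were too few for a value of their own. Both genes lie next to each other on chromosome 8, in the order Mt4, Mt3, Mt2 and Mt1, and whether either probe also captures the transcript of the other gene was not tested.

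**Figure D4:**
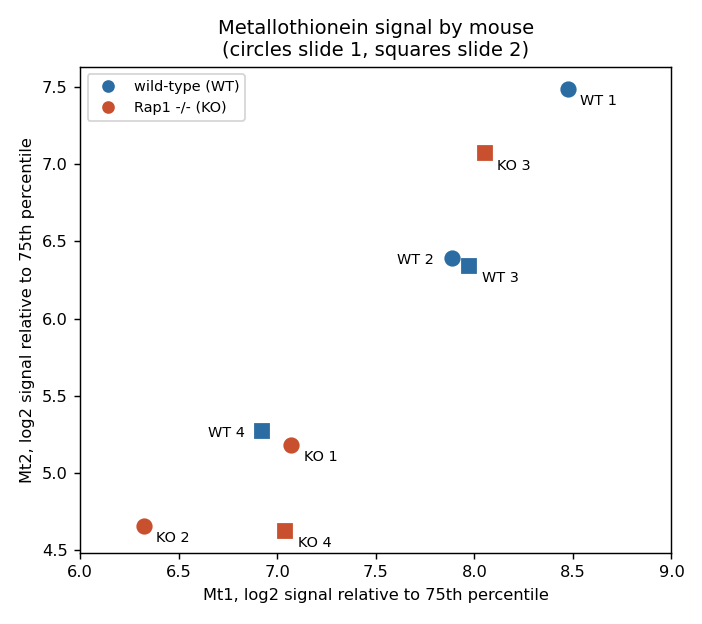
Mt2 (y axis) against Mt1 (x axis), both as log2 signal relative to the 75th percentile, for each of the 8 mice (blue wild-type, red Rap1 -/-, circles slide 1, squares slide 2). Wild-type replicates 1, 2 and 3 and Rap1 -/- replicate 3 lie at the upper right, and the other 4 mice at the lower left.

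Both metallothioneins were lower in Rap1-deficient mice on slide 1 and not on slide 2, a difference between slides that did not pass the test. On slide 1, Mt1 was at 7.07 and 6.32 in the Rap1-deficient and 8.47 and 7.88 in the wild-type mice, a difference of -1.48. On slide 2, it was at 8.05 and 7.04 against 7.97 and 6.92, a difference of 0.10. Mt2 differed by -2.02 on slide 1 and by 0.04 on slide 2. The test of the difference between slides was added after seeing these data, with 2 arrays per slide and genotype. The difference between slides was 1.58 (SE 0.69) for Mt1, with an unadjusted p of 0.0585 by limma, and 2.06 (SE 1.15) for Mt2, with 0.117, and the adjusted p was 1.00 for both, with 0 of 14066 genes called and 3.34% at an unadjusted p under 0.05. With 1 mouse left out the log2 fold change ran from -1.003 to -0.43 for Mt1, the extremes being without Rap1-deficient replicates 3 and 2, and from -1.55 to -0.62 for Mt2, without Rap1-deficient replicate 3 and wild-type replicate 1. Txnrd1 also changed sign, from 0.08 on slide 1 to -0.07 on slide 2. No change of sign between slides was seen for Nfe2l2, Nqo1, Hmox1, Gclc, Gclm or Srxn1.

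**Figure D5:**
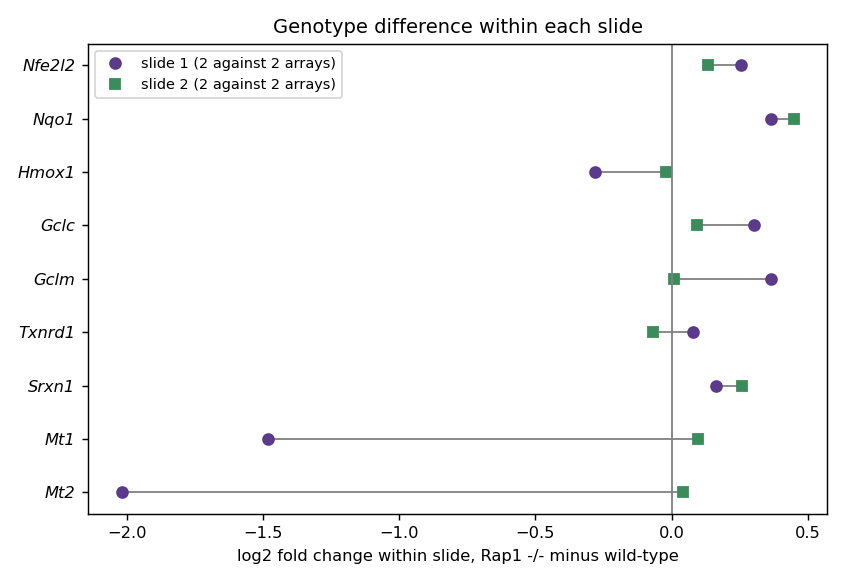
Log2 fold change of the 9 genes, Rap1 -/- minus wild-type (x axis), within slide 1 (circles) and slide 2 (squares), each from 2 against 2 arrays. Mt1 and Mt2 lie at -1.48 and -2.02 on slide 1 and near 0 on slide 2, while Nqo1 and Srxn1 lie above 0 on both.

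Genes of zinc handling showed no shared difference. All 28 listed genes were tested, 0 passed, and 14 were above and 14 below 0, with a median of 0.00. Mtf1, the zinc-sensing factor, had 0.00 (SE 0.16) and its target Slc30a1, a zinc exporter, 0.02 (SE 0.09). Slc39a11, a zinc transporter, was at 3.90, 4.00, 3.95 and 4.08 in Rap1-deficient and 3.47, 3.60, 3.71 and 3.51 in wild-type mice, groups that did not overlap (0.41, SE 0.10, adjusted p = 0.770). Such groups were seen for 1 of the 28 genes, against 4.31% of all genes. Mt3, the metallothionein first known from brain, had -0.17 (SE 0.11), and Mt4, known from squamous epithelium, had 0.65 (SE 0.33) with 3 of 4 wild-type arrays well above background. Atox1, a copper chaperone, had 0.14 (SE 0.09).

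The hormonal and cytokine routes to the metallothioneins were read by other targets of the same signals. Of 15 glucocorticoid response genes 8 were above 0, with a median of 0.02 and 0 past the threshold. That median was 0.197 on slide 1 and -0.232 on slide 2, so the value over all arrays averages slides of opposite sign. Nr3c1, the receptor itself, had 0.14 (SE 0.11), Tdo2 0.39 (SE 0.17), G6pc -0.39 (SE 0.53) and Per1 -0.36 (SE 0.56). Of 16 interleukin-6 acute phase genes 14 were below 0, with a median of -0.11 and 0 past the threshold (adjusted p from 0.809 to 1.00). Stat3, which carries the interleukin-6 signal, had -0.32 (SE 0.18), and the plasma proteins Fgg, Orm2 and Fgb had -0.17 (SE 0.12), -0.14 (SE 0.10) and -0.11 (SE 0.12). As a description over the 8 mice, the median Pearson r with Mt1 was -0.576 for the glucocorticoid genes and 0.209 for the interleukin-6 genes. It was -0.367 for the zinc genes and -0.0955 over all tested genes. The part of these signals in the metallothionein values was not tested.

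Neutrophil markers were set beside the metallothioneins. The 3 tested markers, S100a8, S100a9 and Elane, had log2 fold changes of -0.70, -0.86 and -0.13, and 0 passed (adjusted p from 0.801 to 0.900), while Ly6g, Mpo and Ngp were too dim or had no named probe. Their summed linear level was 16.96, 12.61, 6.33 and 8.18 in wild-type and 7.03, 6.35, 9.61 and 6.09 in Rap1-deficient mice. The highest mouse of each genotype, wild-type replicate 1 and Rap1-deficient replicate 3, was also the highest for Mt1 and Mt2. Wild-type replicate 3, by contrast, had the lowest neutrophil sum of its genotype with an Mt1 level of 7.97, and wild-type replicate 4 had the lowest Mt1 and Mt2 of its genotype with a sum of 8.18. The part of neutrophils in the metallothionein values was not tested. For hepatocytes the summed level of 8 markers was 6696 to 7497 in wild-type and 6278 to 6597 in Rap1-deficient mice, which did not overlap. That sum is on the linear scale, so the brightest markers weigh most in it. Of these 8 markers 0 passed (adjusted p of 0.770 or more by limma) and 5 were above 0, with a median of 0.03, from -0.21 for Alb to 0.25 for Cps1. Taken singly, 1 of the 8 had groups that did not overlap, against 4.31% of all genes. In sinusoidal endothelium, stellate, erythroid and lymphocyte markers the summed levels overlapped between the genotypes (73.88 to 97.06, 103.6 to 116.2, 383.2 to 1596 and 38.89 to 63.95 in wild-type against 74.04 to 104.4, 108.0 to 125.4, 723.4 to 1346 and 39.28 to 48.60 in Rap1-deficient mice), and 0 of their genes passed. Cholangiocyte markers summed to 3.48 to 4.97 in wild-type and 4.25 to 8.31 in Rap1-deficient mice, which overlapped. Of these 6 markers 4 were above 0, with a median of 0.41, and 0 passed. An unadjusted p under 0.05 by limma was seen for 2 of the 6, against 6.36% of all genes. Only 0 of 4 adipocyte markers and 2 of 5 pancreas markers were bright enough to be tested. The pancreas markers summed to 4.67 to 6.71 in wild-type and 6.42 to 7.10 in Rap1-deficient mice.

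Nfe2l2 and its targets were also set against each other over the 8 mice. Nfe2l2 with Nqo1 had Pearson's r = 0.705 (exact permutation p = 0.0565, adjusted 0.198) and Spearman's rho = 0.476 (exact permutation p = 0.243, adjusted 0.524). The r was 0.331 without wild-type replicates 1 and 3, the mice farthest from the median of Nfe2l2. It was 0.275 without wild-type replicate 1 alone and 0.729 without wild-type replicate 3 alone, so the relation rests on wild-type replicate 1, the lowest mouse for both genes. For Hmox1, Gclc, Gclm, Txnrd1 and Srxn1, r with Nfe2l2 lay between -0.07 and 0.37, with adjusted exact permutation p values of 0.611 or more, and rho between -0.33 and 0.50, with adjusted exact permutation p values of 0.524 or more.

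The genes most like each of the 9 over the 8 arrays, by Pearson's r among tested genes and given as a description, were as follows. Nfe2l2 was followed most closely by Trim37 (0.962), Eci1 (0.956) and Orc6 (0.949), and Nqo1 by Odc1 (0.962), Cenpq (0.954) and Gpat3 (0.950). Gclc was followed by Nt5e (0.986), Ppil6 (0.972) and Med8 (0.967), and Gclm by Csgalnact2 (0.991), Becn1 (0.985) and Tut7 (0.983). Txnrd1 was followed by Serpinb8 (0.987), Suv39h2 (0.984) and Fam160b2 (0.983), and Srxn1 by Pfdn4 (0.933), Fam122b (0.932) and Spock1 (0.931). Mt1 was followed by Cyp4f18 (0.980), Rps15 (0.954) and Daxx (0.948), and Mt2 by H2-Q7 (0.985), Cyp4f18 (0.978) and Dtx1 (0.972). Cyp4f18, a cytochrome P450 known from neutrophils, is on both metallothionein lists. Such values are high for the nearest of 14062 genes over only 8 arrays, and the genes share the same arrays.

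Finally, 4 of the 9 genes, Nqo1, Mt1, Mt2 and Hmox1, lie on chromosome 8, which also carries the deleted gene. In the order of tested genes Nqo1 was 47 genes before Terf2ip, Mt1 160, Mt2 161 and Hmox1 286, and Hp, described above, was 39 genes before it. The mice share a mixed background, so alleles lying near the deleted gene cannot be told apart from its loss. Their part in the values of Nqo1, Hp and the other genes on this chromosome was not tested.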

How the data were processed

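Total RNA of 8 livers was labelled with a single dye and hybridized to Agilent mouse arrays. Per the file headers, the authors extracted spot intensity values on a linear scale with Agilent Feature Extraction 10.7.3.1, background-subtracted but unscaled between arrays. The authors also deposited a log2 value table, which differed from normexp correction (offset 50) with quantile normalization of the scanner values by a median of 0.00154. The submitters' processing notes name limma.

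Outlier spots were dropped, repeated spots averaged, and the 75th percentile of each array subtracted from log2 of the processed signal. Accessions were named through RefSeq (GRCm38.p6), which gave a symbol to 26056 of 55681 probes (46.8%). The arrays themselves are annotated on mm9, so only promoter windows, which are RefSeq's own, carry coordinates. Probes well above background on at least 4 of 8 arrays were tested (31068 probes), and the brightest tested probe stood for a gene (14066 genes). Genotypes were compared with limma 3.58.1 in R 4.3.3 without covariates, with Benjamini-Hochberg adjustment over all genes or all probes and a threshold of 0.05. Relations over mice used exact permutation of pairings (Python 3.11.15). On simulated arrays made from the means and spreads of these 14066 genes, a simulated 1.5-fold change was called in 33.7% of cases, a 2-fold change in 67.5% and a 4-fold change in 89.8%. Each of the 5 runs held 200 changed genes. With fewer changed genes the adjustment is stricter, and such a setting was not simulated. The rates are over genes of all spreads and were not measured for genes as variable as Mt1 and Mt2.

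Named genes were the 9 members, Terf2ip, the 4 genes of each list with the smallest p and a fixed set of regulators, and the 3 genes most like each member. The members and lists were chosen with earlier results of these data known. Where the files hold no mean signal, the median signal was used for normexp. The labels call the mice biological replicates. The number of arrays limits the precision. Alternatives were other normalizations, the value table, filters, variance models, slides, the replicate number and leaving out each array.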

Additional observations from a re-analysis of the deposited data

Results flagged for a closer look

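Among 20 groups of 4 arrays (10 probes in each genotype), 2 held an array whose gap to its nearest neighbour was large against the range of the group, where chance gives about 1 in 20. Nfe2l2 in Rap1-deficient replicate 1 was at 3.70, with a gap of 0.984 of the range, but that whole range was 0.04 on the log2 scale because the other 3 mice were at 3.66. Nqo1 in wild-type replicate 1 was at -0.52, with a gap of 0.843 of the range, and without it the log2 fold change was 0.29 in place of 0.41.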

How the results depend on the processing

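In all 20 alternatives 0 of the 9 genes and 0 of the 154 listed genes passed, as in the reported fit. Nfe2l2, Nqo1, Hmox1, Gclc, Gclm and Srxn1 kept their direction in all 20 (ranges 0.09 to 0.26, 0.29 to 0.55, -0.31 to -0.02, 0.09 to 0.33, 0.01 to 0.36 and 0.15 to 0.27). Txnrd1 turned to -0.045 with quantile normalization, -0.049 with cyclic loess, -0.058 with normexp and in the value table and -0.067 on slide 2, and with 1 array left out it ran from -0.045 to 0.095. On slide 2 alone Mt1 was 0.10 and Mt2 was 0.042. The dimmer Hmox1 probe ran from -0.092 to 0.029 with 1 array left out.

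The count of all tested genes called, 2, became 0 with normexp, in the value table, and on slide 1, and 1 with quantile normalization, without the filter, with the filter on all 8 arrays, with slide as a block, on slide 2 and without any single array, and 3 with trended and robust variance and with the mean of all tested probes of a gene. The probe count, 2, became 1 with normexp, in the value table and on slide 2, 0 with the filter on all 8 arrays and on slide 1, 4 with trended and robust variance, and 1 to 2 with 1 array left out. With the replicate number as a block (replicate block) 0 genes and 1 probe were called, and 0 of the 9 genes. Deviations of same-numbered mice correlated at -0.18 to 0.10 and 0 of 4 pairs exceeded 0.1, so the numbers were not taken to pair the mice. The causes were not tested.

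The relation of Mt1 with Mt2 kept r between 0.923 and 0.973, while that of Nfe2l2 with Nqo1 ran from 0.275, without wild-type replicate 1, to 0.797. Of the other relations, Nfe2l2 with Txnrd1 turned to -0.10 with quantile normalization, -0.26 with normexp and in the value table, and -0.035 with cyclic loess, Nfe2l2 with Hmox1 to 0.13 with normexp and in the value table and ran from -0.29 to 0.084 with 1 array left out, Nfe2l2 with Srxn1 to -0.031 with normexp and -0.036 in the value table, and Nfe2l2 with Gclm ran from -0.13, without wild-type replicate 1, to 0.57. These relation alternatives were chosen after seeing the data.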
